A study of Mus musculus with 2 samples.

Results

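The genes of S phase and of G2 and M phase were followed as a group of 42 among the 32285 genes counted in scRNA-seq libraries of mouse femoral fracture callus. The members were chosen by symbol from textbook knowledge of the cell cycle, with earlier results of these data known. Of these, 15 act mainly in S phase, 26 act in G2 or M phase, and Stmn1, a regulator of microtubules that is also used by cells outside the cycle, was assigned to no phase. All 42 were found in both libraries.

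A dividing cell copies its DNA in S phase and separates the copies in mitosis. The MCM proteins form the helicase that opens the DNA, Pcna is the sliding clamp of the polymerases, and Rrm1, Rrm2, Tyms and Tk1 provide nucleotides. Later, Cdk1 with its B-type cyclins drives entry into mitosis, the kinesins and microtubule-binding proteins build the spindle, and Cdc20 and Ube2c work with the anaphase-promoting complex to end it. In endochondral repair, chondrocytes divide first and then stop as they become hypertrophic, the state marked by Col10a1, while the marrow next to the callus holds dividing blood precursors.

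The 2 libraries, MGJ and MGJ2, were made from dissociated callus of wild-type C57BL/6J mice, males 12 weeks of age by the study's methods, with a fractured femur. The study collected callus at 10 and 20 days after fracture from 5 mice each. The labels gave neither day to either library, and barcodes were not assigned to single mice, so each library is 1 sample, and values are given for both without setting one day against the other. With 1 library of each kind there was no test, and all intervals below are 95% intervals that cover counting error only.

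Library MGJ held 14295 barcodes and 135304426 unique molecular identifiers (UMIs, each counting 1 captured RNA molecule), and 12947 cells were kept with a median of 5531 UMIs. Library MGJ2 held 8009 barcodes and 61130834 UMIs, and 7568 cells were kept with a median of 4920 UMIs. Only 19 barcode sequences occurred in both libraries. Cells were clustered without the members and without 94 other cell-cycle genes, and clusters were named from marker genes and carry the ending "-like". Named classes of at least 50 cells were 17 (MGJ) and 14 (MGJ2), and 24.6% and 7.58% of the kept cells stayed unnamed. Col2a1, the main cartilage collagen, reached 51269 of each 1000000 UMIs even in the sub-cluster of chondrocyte-like cells with the most member UMIs.

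The promoters of the members are shown first because S and G2M members differed in the short words their promoters held. Promoter sequences were available from RefSeq (GRCm38.p6) for 34 of the 42 members, 12 S and 22 G2M members, from 250 bases before to 50 bases after the transcription start. Short words were searched on both strands, for the G2M genes a pair of them. The first is the cell cycle genes homology region (CHR), written TTTGAA or TTCGAA, and the second is CCAAT, the word bound by NF-Y. The CHR word was present in 18 of 22 G2M promoters (81.8%), in 2 of 12 S promoters (16.7%) and in 21.7% of the promoters of all 27025 genes. CCAAT was present in 20 of 22 G2M promoters (90.9%), in 9 of 12 S promoters (75%) and in 41.1% of all genes. Both words stood together in 18 of 22 G2M promoters against 9.65% of all genes. A match of letters is a description of the window and not a site of binding.

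Of the G2M promoters, 4 are printed 5′ to 3′ with each CHR word and each CCAAT word on the gene's strand in capitals, because they show CCAAT words before the start and a CHR word at or after it, or just before it.
Ccnb2, chr9:70421505-70421804, minus strand: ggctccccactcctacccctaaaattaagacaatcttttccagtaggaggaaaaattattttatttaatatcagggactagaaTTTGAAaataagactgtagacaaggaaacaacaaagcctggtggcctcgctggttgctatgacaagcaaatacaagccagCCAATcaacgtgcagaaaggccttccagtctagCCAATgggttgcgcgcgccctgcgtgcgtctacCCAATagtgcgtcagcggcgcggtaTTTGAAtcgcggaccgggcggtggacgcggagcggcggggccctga
Cdc20, chr4:118437294-118437593, minus strand: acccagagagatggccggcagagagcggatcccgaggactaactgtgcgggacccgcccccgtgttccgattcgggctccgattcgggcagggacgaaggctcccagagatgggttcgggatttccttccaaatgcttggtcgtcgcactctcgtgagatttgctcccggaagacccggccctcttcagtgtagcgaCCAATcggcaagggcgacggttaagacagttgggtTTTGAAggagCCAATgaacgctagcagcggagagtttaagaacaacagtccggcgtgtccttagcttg
Plk1, chr7:122159185-122159484, plus strand: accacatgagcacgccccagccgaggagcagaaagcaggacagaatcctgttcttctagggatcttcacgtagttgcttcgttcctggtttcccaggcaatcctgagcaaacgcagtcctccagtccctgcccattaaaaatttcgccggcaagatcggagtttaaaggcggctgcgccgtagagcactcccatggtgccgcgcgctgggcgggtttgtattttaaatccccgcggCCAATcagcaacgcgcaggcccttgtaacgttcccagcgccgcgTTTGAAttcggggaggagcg
Cenpf, chr1:189688037-189688336, minus strand: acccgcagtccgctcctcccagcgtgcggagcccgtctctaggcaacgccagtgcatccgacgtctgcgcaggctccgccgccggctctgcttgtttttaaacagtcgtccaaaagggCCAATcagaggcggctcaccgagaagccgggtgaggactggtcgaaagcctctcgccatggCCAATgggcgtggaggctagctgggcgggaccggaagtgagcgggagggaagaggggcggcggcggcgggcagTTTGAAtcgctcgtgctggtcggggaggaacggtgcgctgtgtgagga

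With the start itself counted as 0, the CHR word began at base 4 in Ccnb2, which encodes a mitotic cyclin, with a further copy at -167, and at base 2 in Cenpf, a kinetochore protein. In Plk1, a mitotic kinase, it began at base 30. In Cdc20 it began at -18, between CCAAT words at -53 and -8. The CHR words and the CCAAT words did not overlap in these promoters.

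For the S genes, the searched words were the E2F sequences TTTCCCGC, TTTGGCGC, TTTCGCGC and TTTGCCGC, on both strands. One of these was present in 5 of 12 S promoters (41.7%), in 1 of 22 G2M promoters (4.55%, Cdk1) and in 2.6% of all genes. The promoters of 3 subunits of the MCM helicase that carry them are printed with the E2F words in capitals, also where a word lies on the other strand.
Mcm3, chr1:20820263-20820562, minus strand: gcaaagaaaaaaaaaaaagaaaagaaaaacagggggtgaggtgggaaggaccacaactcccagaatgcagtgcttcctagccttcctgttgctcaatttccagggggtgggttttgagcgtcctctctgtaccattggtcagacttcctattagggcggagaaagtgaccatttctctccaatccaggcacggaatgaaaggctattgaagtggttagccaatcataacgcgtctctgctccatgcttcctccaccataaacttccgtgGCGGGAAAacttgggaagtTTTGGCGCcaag
Mcm5, chr8:75109259-75109558, plus strand: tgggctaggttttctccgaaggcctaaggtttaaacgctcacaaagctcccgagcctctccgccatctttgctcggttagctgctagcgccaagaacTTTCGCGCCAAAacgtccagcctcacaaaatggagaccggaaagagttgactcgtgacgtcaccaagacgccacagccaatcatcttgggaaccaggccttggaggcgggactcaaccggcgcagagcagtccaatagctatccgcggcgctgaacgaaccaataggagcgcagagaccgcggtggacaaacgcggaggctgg
Mcm6, chr1:128359656-128359955, minus strand: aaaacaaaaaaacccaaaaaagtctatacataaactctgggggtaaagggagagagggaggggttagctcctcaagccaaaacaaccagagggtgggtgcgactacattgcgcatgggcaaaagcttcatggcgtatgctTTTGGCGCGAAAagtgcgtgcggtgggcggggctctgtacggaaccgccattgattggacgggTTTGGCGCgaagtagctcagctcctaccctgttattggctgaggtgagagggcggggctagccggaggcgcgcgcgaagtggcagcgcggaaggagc

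In Mcm5 the capitals hold an E2F word on each strand, at -153 and -149, which overlap. The same arrangement was found in Mcm6 at -110 and -106, with a separate word at -47. In Mcm3 the words began at bases 19 and 38. Pcna had none of these E2F words and no CHR word in its window, which says only that these letters were not there. Among the 73 other cell-cycle genes with a promoter, 46.6% had a CHR word and 24.7% an E2F word.

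Over all kept cells, the level of the summed members was 693 CPM (UMIs of a gene or group in 1000000 UMIs of the cells) in MGJ, with an interval of 689 to 698. In MGJ2 it was 1867 CPM, with an interval of 1856 to 1878. At least 1 member UMI was found in 61.4% of the cells of MGJ and 74.2% of the cells of MGJ2, and mature neutrophil-like cells, which do not divide, also had member UMIs. To compare cells of unlike depth, cells were thinned to 2000 UMIs each, and a cell was called high when at least 10 of these came from the members. This was the case for 279 of 9600 cells in MGJ (2.91%, Clopper-Pearson interval 2.58 to 3.26) and for 360 of 6765 cells in MGJ2 (5.32%, interval 4.8 to 5.88), after 3347 and 803 shallower cells had been left out. Without thinning, the shares were 7.4% and 12.4%. The cut of 10 UMIs lies on a continuous range: among the chondrocyte-like cells of MGJ, 20 had 8 or 9 member UMIs and 15 had 10 or 11.

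**Figure D1:**
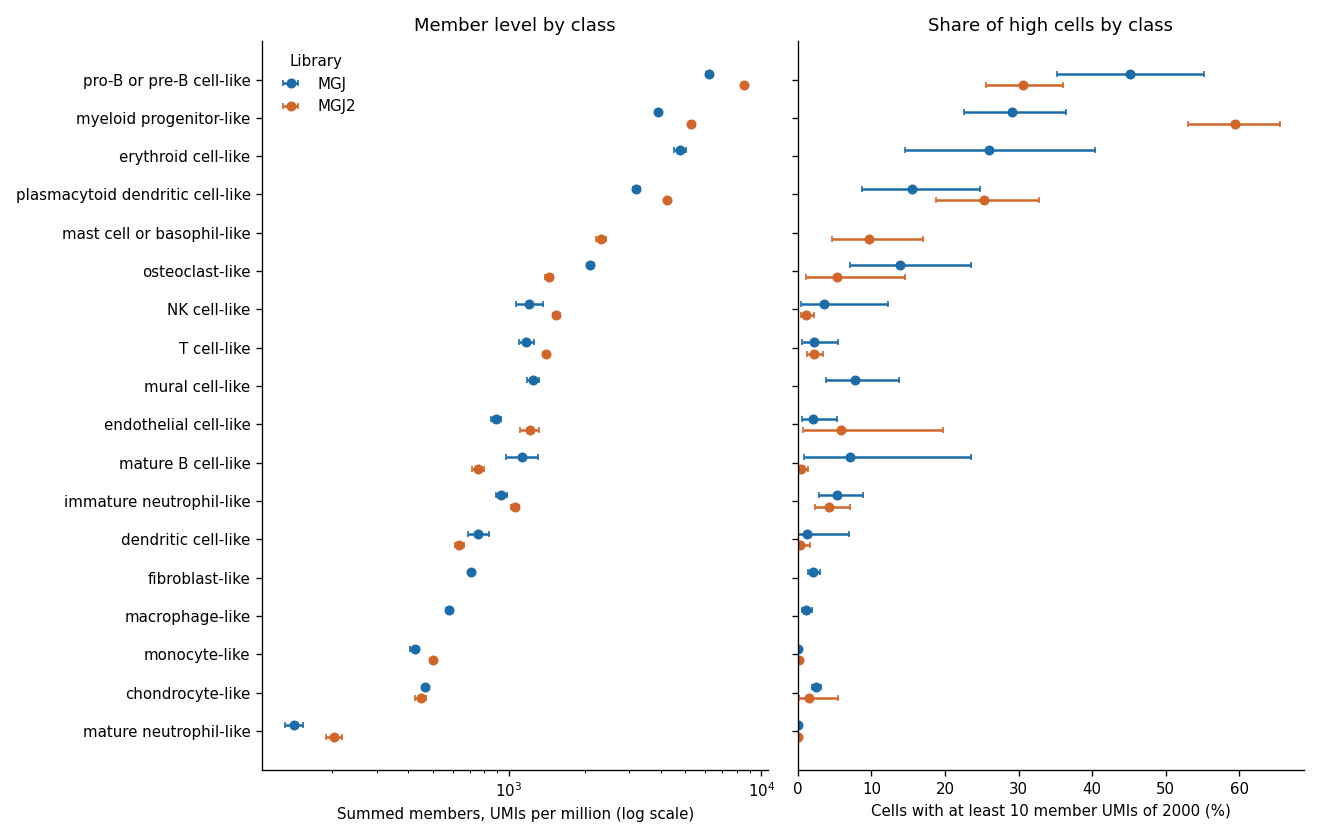
Summed members by cell class in CPM (left, log scale) and share of high cells in percent (right), for library MGJ (blue) and library MGJ2 (orange), with 95% counting intervals as bars. Pro-B or pre-B cell-like cells sit highest in level in both libraries (6198 and 8511 CPM) and mature neutrophil-like cells lowest (141 and 203). With each cell weighted equally, pro-B or pre-B cell-like cells (2984 and 4835) fall below myeloid progenitor-like cells (3857 and 5638).

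Levels differed widely between the cell classes, and the order was led by blood precursors. Pro-B or pre-B cell-like cells had 6198 CPM of members in MGJ (exact Poisson interval 6021 to 6379) and 8511 in MGJ2 (interval 8396 to 8627). These levels weight cells by their UMIs. With each cell weighted equally they were 2984 and 4835, below the 3857 and 5638 of myeloid progenitor-like cells and, in MGJ, the 4295 of erythroid cell-like cells. Of the pro-B or pre-B cell-like cells, 46 of 102 were high in MGJ (45.1%, interval 35.2 to 55.3) and 98 of 320 in MGJ2 (30.6%, interval 25.6 to 36.0). Too shallow for these shares were 114 of the 216 cells in MGJ and 8 of the 328 in MGJ2. High cells were deeper than low cells, with medians of 6765 against 2327 UMIs in MGJ and 11009.5 against 3367.5 in MGJ2. Without thinning, the shares in this class were 23.6% and 32.9%. All 42 members in MGJ and 41 in MGJ2 were at least 2-fold higher in this class than in all other cells of the library, where 28.4% and 27% of all genes tested were. The most abundant member there was Stmn1 with 1340 CPM in MGJ and 1256 in MGJ2. Top2a, the topoisomerase that untangles DNA before mitosis, had 557 and 731, and Pcna had 438 and 797. The class was not uniform. The cluster led by Vpreb1, Igll1 and Dntt, genes of the pro-B and early pre-B stage, had 8517 and 10863 CPM of members, and 64.1% and 59.8% of its cells were high. The cluster led by Vpreb3, Rag1 and Cd79b had 1718 and 3534, with 5 of 38 thinned cells (13.2%) and 19 of 188 (10.1%) high. In MGJ, 103 of the 141 cells of that cluster were left out as too shallow. Over the whole class, high cells carried less Igll1 than low cells, those with at most 1 member UMI. Its UMIs per thinned cell were 0.543 against 1.06 in MGJ and 0.388 against 0.929 in MGJ2. Rag1 had 0.13 against 0.8 and 0.439 against 1.98. Vpreb1, Vpreb3 and Dntt were also lower in the high cells of both libraries. Rag2 was higher in MGJ (0.0435 against 0) and lower in MGJ2 (0.214 against 0.236).

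Myeloid progenitor-like cells had 3901 CPM in MGJ (interval 3829 to 3974) and 5241 in MGJ2 (interval 5188 to 5294). High cells made up 51 of 175 (29.1%, interval 22.5 to 36.5) in MGJ and 149 of 251 (59.4%, interval 53.0 to 65.5) in MGJ2. The median cell had 7 and 11 member UMIs, close to the cut of 10, and the shares ran from 1.71% and 8.37% at a cut of 20 to 95.5% and 98.8% without thinning. In MGJ2 this class alone held 41.4% of all high cells of the library. All 42 members in MGJ and 40 in MGJ2 were at least 2-fold higher than in all other cells, against 11.5% and 11.7% of all genes. Rrm2, the inducible subunit of ribonucleotide reductase, had 205 and 226 CPM, and Cdk1 had 140 and 153. The high cells carried 201 and 171 UMIs of immature neutrophil markers per thinned cell in MGJ and MGJ2 and 6.47 and 13.3 of the markers of their own class, whereas the low cells, with at most 1 member UMI, carried 93.4 and 2.5 of the former and 40.0 and 66.5 of the latter. Only 9 low cells in MGJ and 2 in MGJ2 stood behind these means. The level and share are therefore those of the cluster and are not given as those of myeloid progenitors alone.

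Erythroid cell-like cells reached the size of a class only in MGJ, where 71 cells had 4773 CPM (interval 4521 to 5035). Of 50 thinned cells, 13 were high (26%, interval 14.6 to 40.3), and 41 members were at least 2-fold higher than in all other cells, against 10.5% of all genes. Mki67, the standard marker of cycling cells, reached 750 CPM here (interval 652 to 858) against 336 in pro-B or pre-B cell-like cells. Ube2c, the ubiquitin-conjugating enzyme of the anaphase-promoting complex, reached 483 (interval 406 to 572) against 156. Mki67 and Ube2c were highest in erythroid cell-like cells in MGJ, with intervals above the level in the pro-B or pre-B cell-like class.

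The cluster that carried the plasmacytoid dendritic cell markers Siglech and Ccr9 had 3201 CPM of members in MGJ (interval 3101 to 3304) and 4239 in MGJ2 (interval 4166 to 4312), and 15.6% and 25.3% of its cells were high. Its high cells carried few UMIs of those markers. Siglech had 0 UMIs per thinned cell in the high cells and 2.72 in the low cells of MGJ, and 0.293 and 4.66 in MGJ2. Summed over the 5 markers of the list, the high cells had 0.5 and 1.10 UMIs per cell and the low cells 12.6 and 17.5. The high cells were also deeper, with a median of 16317.5 UMIs against 5406 in the low cells of MGJ, and 25451 against 8516 in MGJ2. The member level of this cluster is therefore not given as one of plasmacytoid dendritic cells.

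**Figure D2:**
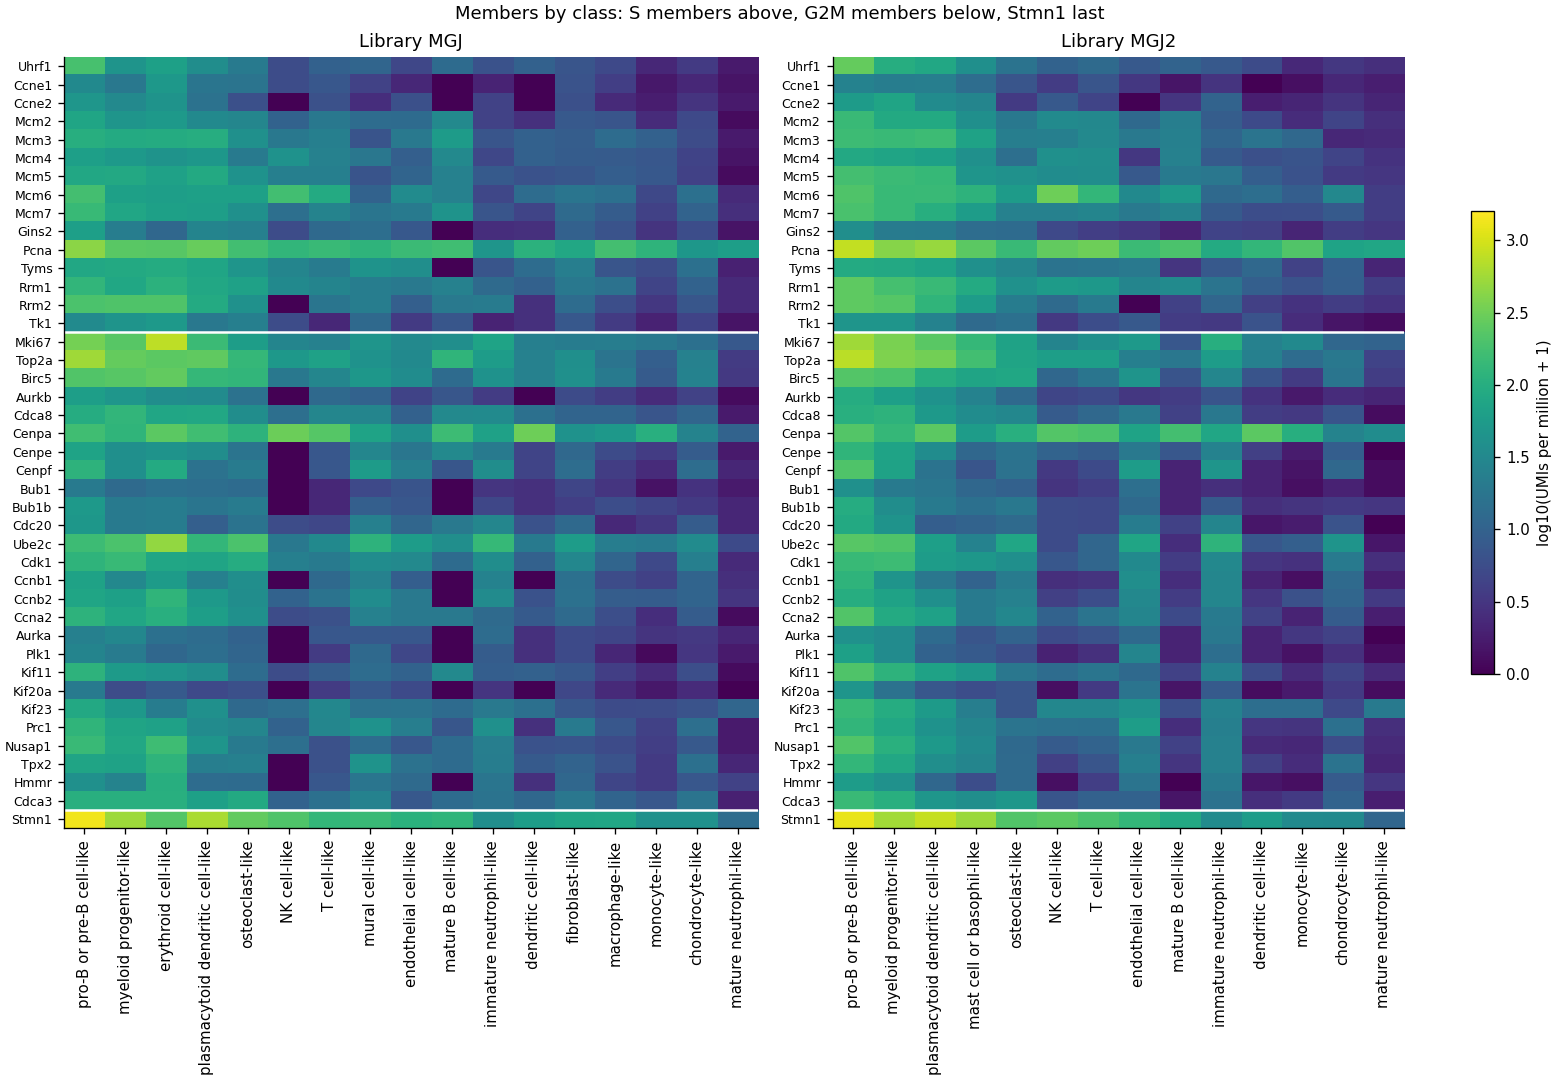
Level of each member (rows, S members above, G2M members below, Stmn1 last) in each class (columns, ordered by member level), as log10 of CPM plus 1, for library MGJ (left) and library MGJ2 (right). Most rows are brightest at the left, while Cenpa, Mcm6 and Pcna keep colour towards the right.

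In library MGJ, 25 members had their highest level in pro-B or pre-B cell-like cells, 11 in erythroid cell-like and 4 in myeloid progenitor-like cells. In library MGJ2, 35 were highest in pro-B or pre-B cell-like cells and 4 in myeloid progenitor-like cells. Cenpa, the histone H3 variant of the centromere, did not keep to this order. It was highest in dendritic cell-like cells in MGJ with 312 CPM (interval 268 to 362), where 1 of 77 cells was high, against 164 in pro-B or pre-B cell-like cells (interval 136 to 195). In MGJ2, dendritic cell-like cells had 248 CPM of Cenpa (interval 232 to 265) and pro-B or pre-B cell-like cells 222 (interval 204 to 242). Cenpa also reached 298 and 218 in NK cell-like cells and 104 and 101 in monocyte-like cells in MGJ and MGJ2. Over the named classes, the level of Cenpa correlated least with that of the other members, at r = 0.57 over 17 classes in MGJ and 0.48 over 14 classes in MGJ2, as a description of classes that share 1 library.

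Mcm6, a subunit of the MCM helicase, also departed from this order in NK cell-like cells. It had 170 CPM there in MGJ (interval 119 to 234) and 312 in MGJ2 (interval 292 to 332), against 13.7 and 24.3 of Mcm7 and 22.9 and 34.7 of Mcm5, other subunits of the same ring. T cell-like cells also had 88.6 and 130 CPM of Mcm6. The libraries were made with a 3′ kit, and these levels are not divided by gene length. Pcna, which also serves DNA repair, was the member with the most UMIs in both libraries. It reached 176 CPM in macrophage-like cells of MGJ (interval 169 to 183) and 118 and 216 in monocyte-like cells of MGJ and MGJ2, where the share of high cells was 0 of 741 (which allows up to 0.405%) and 3 of 1557 (0.193%). Even in mature neutrophil-like cells, Pcna had 60.6 and 77.7 CPM, against 2.62 and 3.38 of Top2a. None of Cenpa, Mcm6 and Pcna overlaps an exon of another counted gene in the annotation, whereas 11 other members do, all on the opposite strand (among them Ube2c with Tnnc2, Cdc20 with Elovl1 and Mcm7 with Cops6).

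Mature neutrophil-like cells, which no longer divide, gave the lowest level of the named classes, 141 CPM of members in MGJ (interval 130 to 153) and 203 in MGJ2 (interval 189 to 219). Of these, 0 of 826 and 0 of 968 cells were high, which allows shares of up to 0.363% and 0.31%. Their cells were shallow, with medians of 1863 and 2199.5 UMIs. Of the members, 40 in MGJ and 41 in MGJ2 were at least 2-fold lower than in all other cells, against 69.3% and 66.3% of all genes, so that most genes of any kind were lower in this class.

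**Figure D3:**
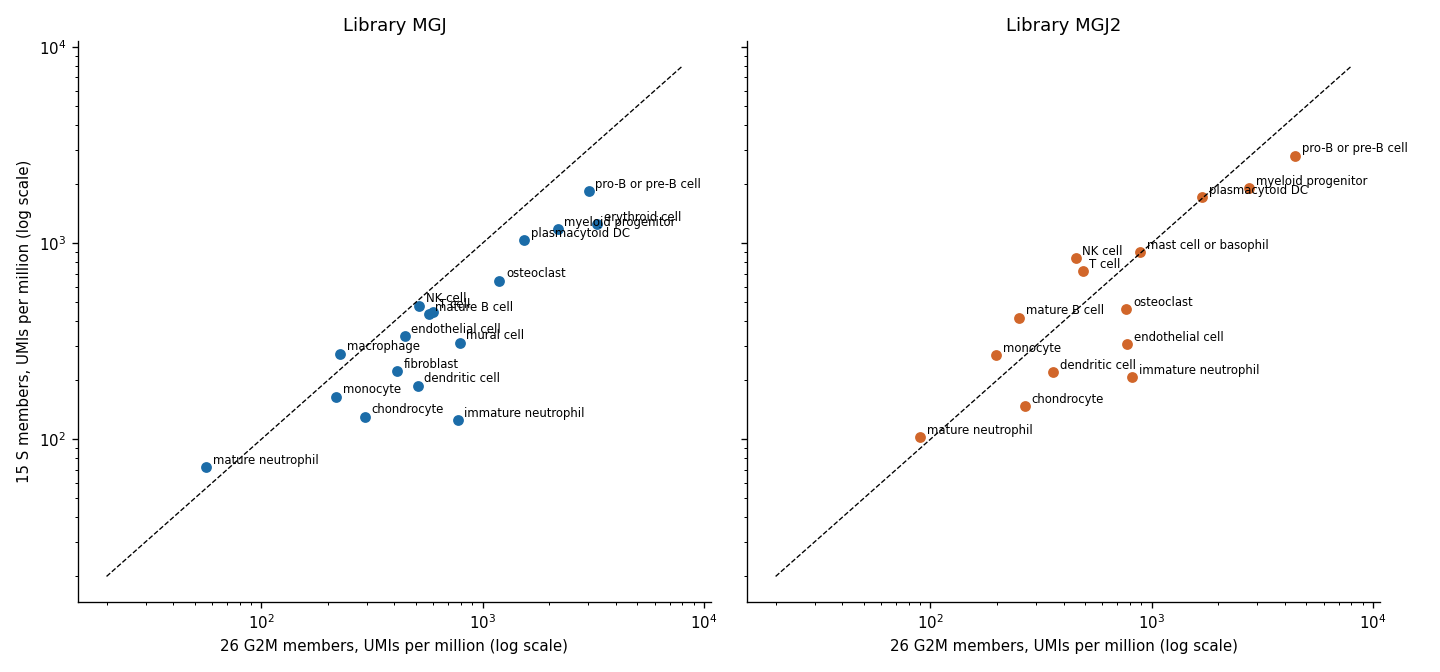
Summed S members (vertical axis) against summed G2M members (horizontal axis) in CPM on log scales, 1 point for each class, for library MGJ (left) and library MGJ2 (right), with the dashed line at equal levels. Immature neutrophil-like cells lie farthest below the line in both libraries (ratios 0.162 and 0.255), while NK cell-like cells of MGJ2 lie farthest above it (1.85).

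The balance of S to G2M members was also read within each class. Over all kept cells, the 15 S members had 0.575 UMIs for each UMI of the 26 G2M members in MGJ (conditional binomial interval 0.567 to 0.584) and 0.802 in MGJ2 (interval 0.791 to 0.812). In immature neutrophil-like cells, whose leading genes include Ltf and Ngp of the neutrophil granules, the ratio was 0.162 (interval 0.141 to 0.187) in MGJ and 0.255 (interval 0.233 to 0.278) in MGJ2, below that of every other named class in both libraries. Ube2c had 139 and 121 CPM in these cells and Mki67 had 70.5 and 99.6, whereas Tk1, the thymidine kinase of S phase, had 1.08 and 2.36 and Tyms, which makes thymidylate, had 5.92 and 6.75. In MGJ, 14 members, all of them G2M members, were at least 2-fold higher than in all other cells, and in MGJ2 3 were, against 6.56% and 5.19% of all genes. All genes tested had a median log2 difference of -1.24 and -1.22 in this class, and after scaling by size factors 27 and 13 members passed, against 20.1% and 19.8% of all genes. Of these cells 14 of 262 (5.34%, interval 2.95 to 8.80) and 14 of 329 (4.26%) were high. The 8 immature neutrophil markers summed to 242.5 and 248.5 UMIs per thinned cell in the high cells and 205 and 211 in the low cells. Ngp had 92.0 and 96.9 against 94.6 and 99.7, and Camp had 94.4 and 84.5 against 58.3 and 53.5. The high cells of the myeloid progenitor-like cluster also carried immature neutrophil markers, and the S to G2M ratio of that cluster was 0.54 and 0.691. Genes correlated with the members had stayed in the clustering, and their part in these ratios was not tested. Within a class, the chondrocyte-like cells of MGJ2 outside the hypertrophic-like sub-cluster had a ratio of 0.214.

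At the other end, NK cell-like cells of MGJ2 had an S to G2M ratio of 1.85 (interval 1.74 to 1.98). Mcm6 and Pcna were the S members with the most UMIs there, and 7 of 648 cells were high. T cell-like cells of MGJ2 had a ratio of 1.48 (interval 1.40 to 1.56). Among these, the cluster led by Icos, Cxcr6 and Cd8a had 2087 CPM of members and 17 of 348 cells high. In library MGJ, osteoclast-like cells had 2104 CPM and 11 of 79 high cells (13.9%, interval 7.16 to 23.6), and 32 members were at least 2-fold higher than in all other cells (17.3% of all genes). Ctsk, the cathepsin of bone resorption, was lower in these high cells (7.45 UMIs per thinned cell) than in the low cells of the class (19.5). In MGJ2, osteoclast-like cells had 1446, below the 1883 of all other cells, and 0 members were at least 2-fold higher (14.1% of all genes). Mural cell-like cells in MGJ had 10 of 129 high cells, with 17 members at least 2-fold higher, 13 of them G2M members (15.3% of all genes).

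The counts of members past 2-fold are completed here for the other classes, each against all other cells of its library. T cell-like cells had 10 members higher (6 S and 4 G2M, background 21.4% of all genes) and 6 lower (36.9%) in MGJ, and 0 higher (13.8%) and 26 lower, 21 of them G2M (29.3%), in MGJ2. NK cell-like cells had 6 higher (19.8%) and 15 lower (48.1%) in MGJ, and in MGJ2 Mcm6 alone was higher (16.5%) and 28 were lower (28.4%), 23 of them G2M. Mature B cell-like cells had 11 higher (22.8%) and 16 lower (48.5%) in MGJ, and 0 higher (17.8%) and 34 lower (31.5%) in MGJ2. Dendritic cell-like cells had 1 member higher, Cenpa, in both libraries (11.7% and 4.57%), and 19 and 40 lower (45.2% and 40.2%). Monocyte-like cells had 1 member higher in MGJ (9.68%) and 0 in MGJ2 (7.32%), with 32 and 40 lower (45.4% and 42.5%). Macrophage-like cells of MGJ had 1 higher (12.7%) and 19 lower (34.7%), 15 of them G2M. The member that was higher was Cenpa in monocyte-like cells and Pcna in macrophage-like cells.

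Fibroblast-like cells of MGJ had 708 CPM of members and 29 of 1404 high cells (2.07%), with 2 members higher (13.3%) and 0 lower (17.8%). Endothelial cell-like cells had 3 higher (20.5%) and 3 lower (23.4%) in MGJ, and in MGJ2, with 50 cells, 6 higher, all G2M (22.3%), and 17 lower, 12 of them S members (26.4%). Mast cell or basophil-like cells, a class of MGJ2 only, had 2315 CPM (interval 2213 to 2420) and 10 of 104 high cells, with Stmn1 higher (8.3%) and 4 members lower (32.8%). The plasmacytoid dendritic cell-like cluster had 37 members higher in MGJ (16.4%) and 25 in MGJ2 (12.1%), among them all 15 S members in both, and 0 lower (34.3% and 19.6%). Immature neutrophil-like cells had 8 members lower in MGJ (66.8%), 7 of them S members, and 18 in MGJ2 (62.1%), 14 of them S members. In mural cell-like cells 1 member was lower (22.1%). In pro-B or pre-B cell-like cells 0 members were lower (36.9% and 27.4%), as in myeloid progenitor-like cells (41.7% and 32.9%) and in erythroid cell-like cells (65.9%). Osteoclast-like cells had 0 lower in MGJ (35.4%) and 6 in MGJ2 (36.4%). Mature neutrophil-like cells had 0 higher in either library (9.47% and 8.97%).

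The study was concerned with the chondrocytes of the callus. Chondrocyte-like cells had 466 CPM of members in MGJ (2432 cells, interval 460 to 472) and 447 in MGJ2 (131 cells, interval 427 to 469). The ratio to all other cells was 0.547 (interval 0.538 to 0.555) in MGJ and 0.227 (interval 0.216 to 0.238) in MGJ2. Of the members, 0 were at least 2-fold higher in either library, against 12.9% and 19.9% of all genes. In MGJ, 14 members were at least 2-fold lower, 10 of them S members, against 25.7% of all genes, and in MGJ2 36 were, against 33%. For S members, the ratio to all other cells was 0.452 in MGJ, and for G2M members it was 0.645. Mcm5 had 3.17 and 2.52 CPM in chondrocyte-like cells, and Cdk1 had 23.3 and 19.9. Their cells were deep, with a median of 21095 UMIs in MGJ against 3581 in all other cells. After thinning, 2.46% of them were high in MGJ (interval 1.88 to 3.16) against 3.06% of all other cells (interval 2.67 to 3.48). In MGJ2 it was 1.53% (interval 0.185 to 5.41) against 5.4% (interval 4.86 to 5.97). Without thinning, the shares were 8.06% against 7.25% in MGJ and 22.9% against 12.2% in MGJ2. The part of depth in these levels and shares was not tested.

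In MGJ, 59 of 2401 thinned chondrocyte-like cells were high (2.46%, interval 1.88 to 3.16), and these made up 21.1% of all high cells of the library. All 59 lay in 1 sub-cluster of 109 cells, which had 5429 CPM of members (interval 5347 to 5512) and 55.7% high cells. The 5 other chondrocyte sub-clusters had between 113 and 214 CPM and 0 high cells. In this sub-cluster, G2M members had 4189 CPM and S members 696. It was led by Top2a, Pbk, Ube2c, Birc5 and Mki67. The members and the other listed cell-cycle genes had been kept out of the clustering, but further genes correlated with the members had not. The sub-cluster was therefore not found independently of the cycle. It had 51269 CPM of Col2a1, close to the 50762 of the hypertrophic-like sub-cluster, and 369 of Col10a1 against 25408 there. Low Col10a1 was not particular to it, as a sub-cluster of 915 cells with 0 high cells had 176. Compared with the low chondrocyte-like cells, the high cells had 95.9 against 111 Col2a1 UMIs per thinned cell, 1.63 against 1.67 of Sox9, the transcription factor of cartilage, 1.29 against 15.4 of Col10a1, and 0 against 0.159 of Ihh, the signal made by prehypertrophic chondrocytes. The low cells in this comparison included 529 hypertrophic-like cells. Markers of erythroid, pro-B or pre-B and myeloid progenitor-like cells were at or near 0 in the high cells, at 0.0169 UMIs per thinned cell for the erythroid list and 0 for the other lists. In MGJ2, 2 of 131 chondrocyte-like cells were high.

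**Figure D4:**
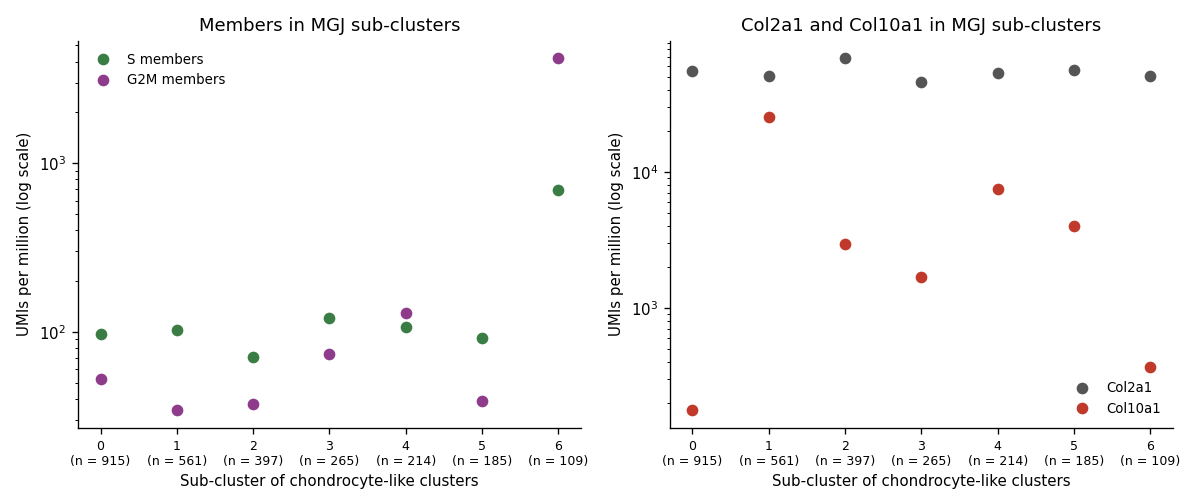
Sub-clusters of the chondrocyte-like clusters of library MGJ, with summed S and G2M members (left) and with Col2a1 and Col10a1 (right), in CPM on log scales. Sub-cluster 6 (109 cells) stands apart with 4189 CPM of G2M members, against 34.2 in the hypertrophic-like sub-cluster 1. Its Col10a1, at 369 CPM, lies between the 176 of sub-cluster 0 and the 25408 of sub-cluster 1. Sub-cluster 4, led by neutrophil genes, was set aside from the class.

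The comparison of hypertrophic-like with all other chondrocyte-like cells was made next. Hypertrophic-like cells, the sub-cluster led by Col10a1, had 147 CPM of members against 561 in MGJ (561 against 1871 cells), a ratio of 0.262 (interval 0.249 to 0.275), and 241 against 670 in MGJ2 (68 against 63 cells), a ratio of 0.36 (interval 0.324 to 0.4). In MGJ 0 of 553 hypertrophic-like cells were high, which allows up to 0.542%, against 59 of 1848 other chondrocyte-like cells. In MGJ2 it was 0 of 68, which allows up to 4.41%, against 2 of 63.

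The G2M members and the S members differed in this ratio. For G2M members the summed ratio was 0.0921 (interval 0.0833 to 0.102) in MGJ and 0.0785 (interval 0.0619 to 0.0983) in MGJ2, while that of the S members was 0.731 (interval 0.686 to 0.778) in MGJ and 1.67 (interval 1.41 to 1.99) in MGJ2. Of the 42 members, 35 were at least 2-fold lower in MGJ, among them all 26 G2M members, against 12.5% of all genes, and 28 were in MGJ2, 25 of them G2M members, against 14.2%. Top2a had 1.94 against 31.4 CPM in MGJ and 2.91 against 34.1 in MGJ2. Ube2c had 2.28 against 42.9 and 1.45 against 91.9. In contrast, Mcm6, the 1 member past 2-fold higher in MGJ (9.9% of all genes, and 4 S members in MGJ2 against 12.8%), was higher in hypertrophic-like cells, with 23.9 against 11.4 in MGJ (ratio 2.10, interval 1.81 to 2.45) and 39.3 against 20.5 in MGJ2 (ratio 1.92, interval 1.29 to 2.89). Mcm7 had a ratio of 1.06 (interval 0.852 to 1.31) in MGJ. Pcna differed in direction between the libraries, at 0.734 in MGJ (interval 0.662 to 0.813) and 2.15 in MGJ2 (interval 1.66 to 2.81).

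These ratios rested on the sub-cluster of high cells, which held 109 cells in MGJ and 2 in MGJ2. It was picked for its high member level and left out on 1 side only, so the summed ratio could only rise. Without the sub-cluster, hypertrophic-like cells had 0.975 of the member level of the other chondrocyte-like cells in MGJ (interval 0.924 to 1.03). In MGJ2 they had 1.47 (interval 1.27 to 1.70), a reversal. The ratio of G2M members was then 0.69 (interval 0.618 to 0.768) in MGJ and 0.805 (interval 0.59 to 1.10) in MGJ2, and that of S members 1.10 (interval 1.03 to 1.18) and 1.80 (interval 1.51 to 2.16). Members at least 2-fold lower then numbered 9 in each library, 6 and 7 of them G2M members, against 11.1% and 13.2% of all genes, in place of 35 and 28. Members at least 2-fold higher numbered 3 and 10, 2 and 6 of them G2M members, against 10.4% and 13.5% of all genes. In another alternative, chondrocyte-like cells with at least 20 Col10a1 UMIs after thinning to 2000 UMIs were taken as hypertrophic-like, and shallower cells were left out. The ratio was then 0.328 in MGJ and 1.63 in MGJ2. Both alternatives were chosen after the data had been seen. Without thinning, 29.4% of the hypertrophic-like and 15.9% of the other chondrocyte-like cells of MGJ2 had at least 10 member UMIs.

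CDK inhibitors and D-type cyclins are given for all chondrocyte-like cells, beside pro-B or pre-B cell-like cells. Cdkn1a, which encodes p21, had 1007 and 1020 CPM in chondrocyte-like cells and Cdkn1c, which encodes p57, had 401 and 246, against 103 and 84.5 of Cdkn1a in pro-B or pre-B cell-like cells. Ccnd1 had 62.5 and 52.9 in chondrocyte-like cells and 3.99 and 2.03 in pro-B or pre-B cell-like cells, where Ccnd3 had 242 and 207.

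Whether the members moved together from cell to cell was examined within classes. For each member, cells with at least 10 UMIs of the other members (high) were compared with cells with at most 1 (low), and the ratio of UMIs per thinned cell was combined over 10 classes in MGJ and 6 in MGJ2. With all members summed, the classes of MGJ2 did not include myeloid progenitor-like cells (149 high, 2 low) or chondrocyte-like cells (2 high). The plasmacytoid dendritic cell-like cluster, whose high and low cells differed in markers, was included in both libraries. All 15 S members were at least 2-fold higher in the high cells in both libraries, as were 24 of 26 G2M members in each, where 10.8% and 12.7% of all genes tested were. The exceptions were Bub1 and Plk1 in MGJ and Ccnb1 in MGJ2, which had 0 UMIs in the low cells so that no ratio exists, and Cenpa in MGJ2 with a ratio of 1.58. The background held only genes with at least 50 UMIs in thinned cells, a limit not set for these members. With that limit, 37 of 37 members in MGJ and 36 of 38 in MGJ2 were at least 2-fold higher. In MGJ, Top2a had 267 UMIs in 234 high cells and 23 in 4886 low cells, a combined ratio of 180, and in MGJ2 371 in 177 and 28 in 1102, a ratio of 168. Cdk1 had ratios of 55.8 and 60.4. The lowest ratios belonged to Pcna in MGJ (3.57) and, after Cenpa, to Mcm6 in MGJ2 (4.39). Pcna had 17.9 and 38.0 UMIs per 100 low cells.

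**Figure D5:**
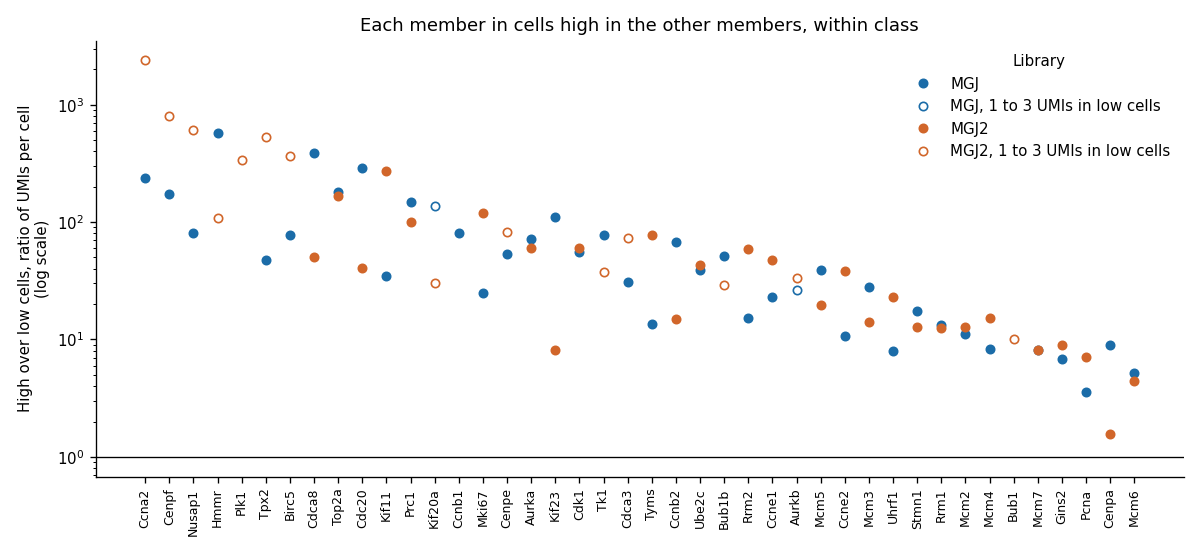
Ratio of UMIs per cell in high over low cells for each member, combined within classes (log scale), for library MGJ (blue) and library MGJ2 (orange), with open circles where the low cells held 1 to 3 UMIs. Bub1 and Plk1 in MGJ and Ccnb1 in MGJ2, with 0 UMIs in the low cells, are not drawn, and Cenpa and Pcna lie lowest (1.58 and 3.57).

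The same split was applied to 94 further genes of the cycle. Of the other S phase genes, 24 of 24 with enough UMIs in MGJ and 24 of 26 in MGJ2 were at least 2-fold higher in the high cells, and of the other G2 and M phase genes 27 of 27 and 26 of 27 were. Among regulators of the cycle, 9 of 13 and 11 of 15 were, including Foxm1, a transcription factor of G2M genes (68.9 and 29.2). Of the G1 cyclins and kinases, 2 of 6 and 4 of 6 were. Ccnd2 had ratios of 0.55 and 0.51, and Cdk2, the kinase partner of E-type cyclins, 3.21 and 8.29. CDK inhibitors passed 2-fold in 3 of 7 and 4 of 5, with Cdkn2c, which encodes p18, at 8.57 and 10.6 and Cdkn1b, which encodes p27, at 0.92 and 0.57. At least 2-fold lower in the high cells was 1 CDK inhibitor in MGJ (0.343), against 14.4% of all genes. In MGJ2, 1 gene of the G1 cyclins and kinases (0.414) and 1 regulator (0.234) were, against 20.6%. Of 9113 genes outside these lists, the 10 most like the members, ranked by the lower of their ratios in the 2 libraries, were Hist1h2ap, Spc24, Sgo1, Kif15, Hist1h1b, Aspm, Esco2, Pclaf, Asf1b and Knstrn. Hist1h2ap, a replication-dependent histone gene, had ratios of 256 and 130, and Pclaf, a partner of Pcna, 48.4 and 207.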

How the data were processed

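The authors deposited UMI counts for each gene and barcode, 1 filtered matrix for each library, whose headers name Cell Ranger 4.0.0. The submitters' processing notes name GRCm38 and Seurat. How counting treated strand is not given in the sources used here. Cells with at least 200 genes and at most 20% mitochondrial UMIs were kept, and barcodes with a Scrublet score above 0.25 were removed as doublets (513 in MGJ and 238 in MGJ2), a threshold set after seeing the scores. Both libraries were clustered together (scanpy 1.11.5, 2000 variable genes, 30 components, 15 neighbours, Leiden resolution 1) and clusters were named from 29 marker lists, with naming thresholds set after the leading genes had been seen. Chondrocyte-like clusters were clustered again at resolution 0.5. Levels are CPM, UMIs of a gene in 1000000 UMIs of the class, with exact Poisson intervals, ratios have conditional binomial intervals and shares Clopper-Pearson intervals (scipy 1.17.1). The precision of each level is set by the UMIs of its class, and a count of 0 is given with the share that 3 counts would be. Comparisons between classes used the 14641 genes of MGJ and 13056 of MGJ2 with at least 50 UMIs, and a gene was counted as higher or lower past 2-fold, with no test. The high and low cells were compared for each member with that member left out of the sum, and combined over classes by the Mantel-Haenszel ratio. The calculations were tested on simulated data. The text names any of the 42 members, genes of the fixed cell-cycle lists and the 10 genes most like the members, and the printed promoters were chosen after the matches were seen. The members and lists were chosen with earlier results of these data known. Alternatives were other filters, resolutions, namings, weightings, scalings and thinning depths. Barcodes could not be assigned to mice and neither library to a day, so no comparison between days was made.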

Additional observations from a re-analysis of the deposited data

Results flagged for a closer look

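Members were also counted in barcodes that no comparison used. The 835 barcodes of MGJ removed for few genes or for mitochondrial UMIs held 547 member UMIs (380 CPM), and the 203 such barcodes of MGJ2 held 276 (672 CPM). These values lie above the 3 counts that a count of 0 allows, and there were no control samples to set beside them.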

How the results depend on the processing

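Each library is 1 sample, so a replicate could not be left out. No paired analysis was possible because the labels put neither library in a group. The values rest on rebuilt class names, and shallow cells were left out of the shares. Of 130 alternative values of the main results, 72 moved by less than their counting interval or by less than 1.5 times for counts, 56 moved further and 2 reversed. Of 255 alternative values for levels of other classes and for shares by class, 149 stayed within the counting interval and 106 moved further. The level of pro-B or pre-B cell-like cells in MGJ stayed in 0 of 10 alternatives, with values from 2984 to 8517 CPM. Monocyte-like levels ran from 245 to 867 in MGJ and from 150 to 860 in MGJ2. The cause of these moves was not tested.

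Hypertrophic-like cells against other chondrocyte-like cells had a ratio of 0.262 in MGJ and 0.36 in MGJ2. In MGJ it was 0.284 with doublets kept, 0.299 with at least 500 genes, 0.33 with cells weighted equally, 0.23 without the 3 members with the most UMIs, 0.359 with genes correlated with the members also out of clustering, 0.328 by Col10a1 UMIs and 0.975 without the sub-cluster led by members. In MGJ2 it was 0.283 with at most 10% mitochondrial UMIs, 0.313 at resolution 0.5, 0.27 at resolution 2, 0.292 with cycle genes in the clustering, 0.604 with cells weighted equally, 0.229 without the 3 members and 0.413 with correlated genes out. It reversed to 1.63 by Col10a1 UMIs and to 1.47 without the sub-cluster, whose removal could only raise the ratio. Without that sub-cluster, 9 members in each library, and not 35 and 28, were at least 2-fold lower (11.1% and 13.2% of all genes). In the other direction, 3 in MGJ and 10 in MGJ2 were at least 2-fold higher (10.4% and 13.5% of all genes).

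Chondrocyte-like cells against all other cells stayed below 1 in every alternative run. From 0.547 in MGJ the ratio moved to 0.559 with at most 10% mitochondrial UMIs, 0.537 with at least 500 genes, 0.53 at resolution 0.5, 0.529 with cycle genes in the clustering, 0.727 with cells weighted equally, 0.571 without Stmn1, 0.595 without the 3 members, 0.52 with correlated genes out and 0.474 without unnamed cells. From 0.227 in MGJ2 it moved to 0.245 at resolution 0.5, 0.242 with cycle genes in, 0.265 with each cell named alone, 0.322 with equal weights, and 0.241 without Stmn1 or without the 3 members. Their level moved from 466 in MGJ to 472 (10% mitochondrial), 456 (resolution 0.5), 396 (equal weights), 425 (without Stmn1) and 342 (without the 3 members), and from 447 in MGJ2 to 483 (resolution 0.5), 476 (cycle genes in), 513 (each cell named alone), 337 (equal weights), 415 (without Stmn1) and 318 (without the 3 members).

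The share of high cells moved from 2.91% and 5.32% in MGJ and MGJ2 to 2.42% and 4.73% without Stmn1, 1.81% and 3.8% without the 3 members, 3.56% and 9.06% when thinned to 5000 UMIs, 6.18% and 10.4% at 5 UMIs, 0.615% and 1.95% at 20 UMIs, and 7.4% and 12.4% unthinned. Under size-factor scaling, the members at least 2-fold higher numbered 27 and 13 in immature neutrophil-like cells (14 and 3 before), 1 in osteoclast-like cells of MGJ2 (0 before) and 16 in plasmacytoid dendritic cell-like cells of MGJ2 (25 before).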
